A study of Homo sapiens with 8 samples.

Results

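The transcripts of 10 genes were followed in 8 RNA-seq libraries of lung adenocarcinoma cells, namely the 4 FOS genes (*FOS*, *FOSB*, *FOSL1* and *FOSL2*), the 3 JUN genes (*JUN*, *JUNB* and *JUND*), the immediate early genes *EGR1* and *IER3*, and *MYC*. The genes were listed by name and no measured value enters the rule, but the list was drawn up with earlier results of these data known. Counts of calls among the 10 genes therefore describe this list and are no independent test of it. All 10 were found by symbol among the 57815 gene identifiers of the deposited tables. The cells were ABC1 and HCC4006, established NSCLC lines that the labels describe as free of mutations in *KEAP1* and *NRF2*, grown in low-glucose DMEM with 10% serum. Each line received either the vehicle DMSO or 100 μM diethyl maleate (DEM), an electrophile that inactivates KEAP1, and RNA was taken after 16 h. Each of the 4 groups held 2 libraries, described in the methods as biological duplicates and numbered here replicates 0 and 1 as in the labels. Each condition rests on a single cell line, so a difference between ABC1 and HCC4006 is one between these lines and not between types of tumor. The study asked which genes respond when NRF2 is transiently activated in such NRF2-normal cells. The time point lies long after the first wave of immediate early transcription, and earlier times were not analysed here.

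AP-1 is a dimer of basic leucine zipper proteins. JUN proteins pair with each other or with FOS proteins, while FOS proteins need a JUN partner to bind DNA, so the mix of family members sets which dimers can form. Many of these genes are immediate early genes, whose transcription growth factors and stress kinases switch on within minutes through factors that are already present in the cell. Their transcripts and proteins usually decay quickly, so that the levels many hours later are steady-state levels rather than the first burst. MYC is a basic helix-loop-helix leucine zipper protein that pairs with MAX and drives ribosome production, nucleotide synthesis and growth.

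Gene promoters of this group carry short elements through which the first wave is started, and 3 of them are shown because their elements are well studied and because *JUN* and *EGR1* were called in 1 line each and *JUND* in neither. The windows are the 250 bases before the RefSeq start, taken from a RefSeq table on GRCh38.p14 and placed on GRCh37, the assembly that hg19 names, by their only exact match. They are written 5′ to 3′ on the strand of the gene, with the matched motifs in capitals. The window of *JUN* lies at chr1:59249720-59249969 on the minus strand, and its capitals mark TTACCTCA, 186 to 179 bases before the start, and TGACATCA, 67 to 60 bases before the start, both known as sites for JUN-ATF dimers. These 2 motifs were added to the search after the window had been read. The window of *EGR1* lies at chr5:137800918-137801167 on the plus strand, and its capitals mark 2 CArG boxes, the element of serum response factor, at 105 to 96 and 83 to 74 bases before the start. In the window of *JUND* at chr19:18392433-18392682 on the minus strand, the capitals mark the cyclic AMP response element TGACGTCA, 200 to 193 bases before the start, and 2 matches of TGACNNNGC, the core of the antioxidant response element that NRF2 binds, at 230 to 222 bases on the strand shown and at 90 to 82 bases on the other strand.
JUN: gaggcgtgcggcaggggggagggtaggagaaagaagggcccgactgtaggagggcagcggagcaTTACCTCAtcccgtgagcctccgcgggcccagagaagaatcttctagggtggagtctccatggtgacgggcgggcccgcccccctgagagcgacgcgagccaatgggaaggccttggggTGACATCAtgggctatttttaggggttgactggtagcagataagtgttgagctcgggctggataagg
EGR1: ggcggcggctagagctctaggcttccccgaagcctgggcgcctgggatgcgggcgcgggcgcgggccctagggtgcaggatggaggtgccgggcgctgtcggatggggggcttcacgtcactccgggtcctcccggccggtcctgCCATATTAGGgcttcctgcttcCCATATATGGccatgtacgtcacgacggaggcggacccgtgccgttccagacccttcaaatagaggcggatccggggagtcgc
JUND: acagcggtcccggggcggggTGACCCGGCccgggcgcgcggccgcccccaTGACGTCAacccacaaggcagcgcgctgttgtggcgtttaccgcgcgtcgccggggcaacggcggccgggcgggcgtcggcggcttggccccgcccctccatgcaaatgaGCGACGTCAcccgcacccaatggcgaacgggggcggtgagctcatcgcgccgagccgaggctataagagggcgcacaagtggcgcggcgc

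Of the 10 genes, 7 had a window in the table. The windows of *FOSL1*, *IER3* and *MYC* were not in it. For *FOSL2* the RefSeq start lies 410 bases inside the gene as annotated by GENCODE, so the bases before the GENCODE start were not searched. The AP-1 site TGANTCA and the E-box CACGTG, searched on both strands, matched in 0 of the 7 windows, and they matched in 6.60% and 6.49% of the 27305 windows of all genes. A CArG box was found in *EGR1* alone among the 7 and in 1.14% of all windows. TGACNNNGC and TGACGTCA were found in *JUND* alone among the 7, against 11.0% and 1.77% of all windows. TGACATCA and TTACCTCA were found in *JUN* alone among the 7, against 2.45% and 0.645% of all windows. As both were added after the *JUN* window had been read, their match in *JUN* was given in advance. A match is a description of these letters and does not show that a factor was bound.

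The libraries were alike in size. Each held 12515 to 13573 genes with an FPKM (fragments scaled by transcript length and by library size) of at least 1, and the largest sum of FPKM values was 1.18 times the smallest. Known NRF2 targets showed that the cells labelled as DEM treated had responded, since all 6 of the genes checked (*NQO1*, *HMOX1*, *GCLM*, *TXNRD1*, *SRXN1* and *SLC7A11*) were called higher in both lines, beside 0.768% of all genes tested in ABC1 and 8.45% in HCC4006. In ABC1 these calls were less firm by limma, since those of *GCLM* (adjusted p = 0.194), *NQO1* (0.284), *SRXN1* (0.0722) and *TXNRD1* (0.201) were lost without replicate 0 of vehicle, those of *GCLM* (0.137), *NQO1* (0.122) and *TXNRD1* (0.127) without replicate 1 of vehicle, and that of *NQO1* without either DEM library (0.0681 and 0.0908). Without the minimum of 1 FPKM 0 of the 6 were called in ABC1 (adjusted p of 0.110 to 0.219, limma) and 5 in HCC4006, where *NQO1* was at 0.0580. Epithelial markers were abundant in every library, with a summed level of *EPCAM*, *KRT8*, *KRT18*, *KRT19* and *CDH1* of 4948 to 5799 FPKM with vehicle and 3655 to 4071 FPKM with DEM in ABC1, and of 2338 to 2472 and 1983 to 2019 FPKM in HCC4006. *KRT8* was at 2271 and 2906 FPKM with vehicle and at 1623 and 1929 FPKM with DEM in ABC1, and at 927 and 813 against 644 and 621 FPKM in HCC4006. *KRT18* was at 1286 and 1423 against 817 and 912 FPKM in ABC1, and at 476 and 465 against 350 and 361 FPKM in HCC4006. Both were called lower with DEM in HCC4006 (log2 fold changes -0.46 and -0.40, adjusted p = 0.0158 and 0.0103, limma) and not in ABC1 (-0.54 and -0.65, adjusted p = 0.203 and 0.101, limma), and *EPCAM*, *KRT19* and *CDH1* were called in neither line. The calls were lost without replicate 0 of HCC4006 DEM, replicate 0 of HCC4006 vehicle or, for *KRT8*, replicate 1 of HCC4006 DEM and, for *KRT18*, replicate 1 of HCC4006 vehicle (adjusted p of 0.0539 to 0.0756, limma), and without the minimum (0.166 and 0.0746), and that of *KRT8* also without the trend (0.0551) and in the fit of all 8 libraries (0.0981). The part of these markers in the changes of the 10 genes was not tested. The lung lineage factor *NKX2-1* was at 42.4 to 47.1 FPKM in HCC4006 and at 0.502 to 0.763 FPKM in ABC1, and *SFTPC* was at or near 0 in every library. The 5 mesenchymal markers (*VIM*, *COL1A1*, *COL1A2*, *COL3A1* and *ZEB1*) summed to 4.61 to 6.71 FPKM in ABC1 and to 236 to 292 FPKM in HCC4006, nearly all of it *VIM*. The leukocyte markers summed to 1.55 to 2.54 FPKM in ABC1 and to 89.5 to 102 FPKM in HCC4006, practically all of it *CD68*, while *PTPRC* did not exceed 0.192 FPKM and *CD3E* did not exceed 0.0577 FPKM in any library. Of the endothelial list, *VWF* and *CDH5* summed to at most 0.236 FPKM.

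**Figure D1:**
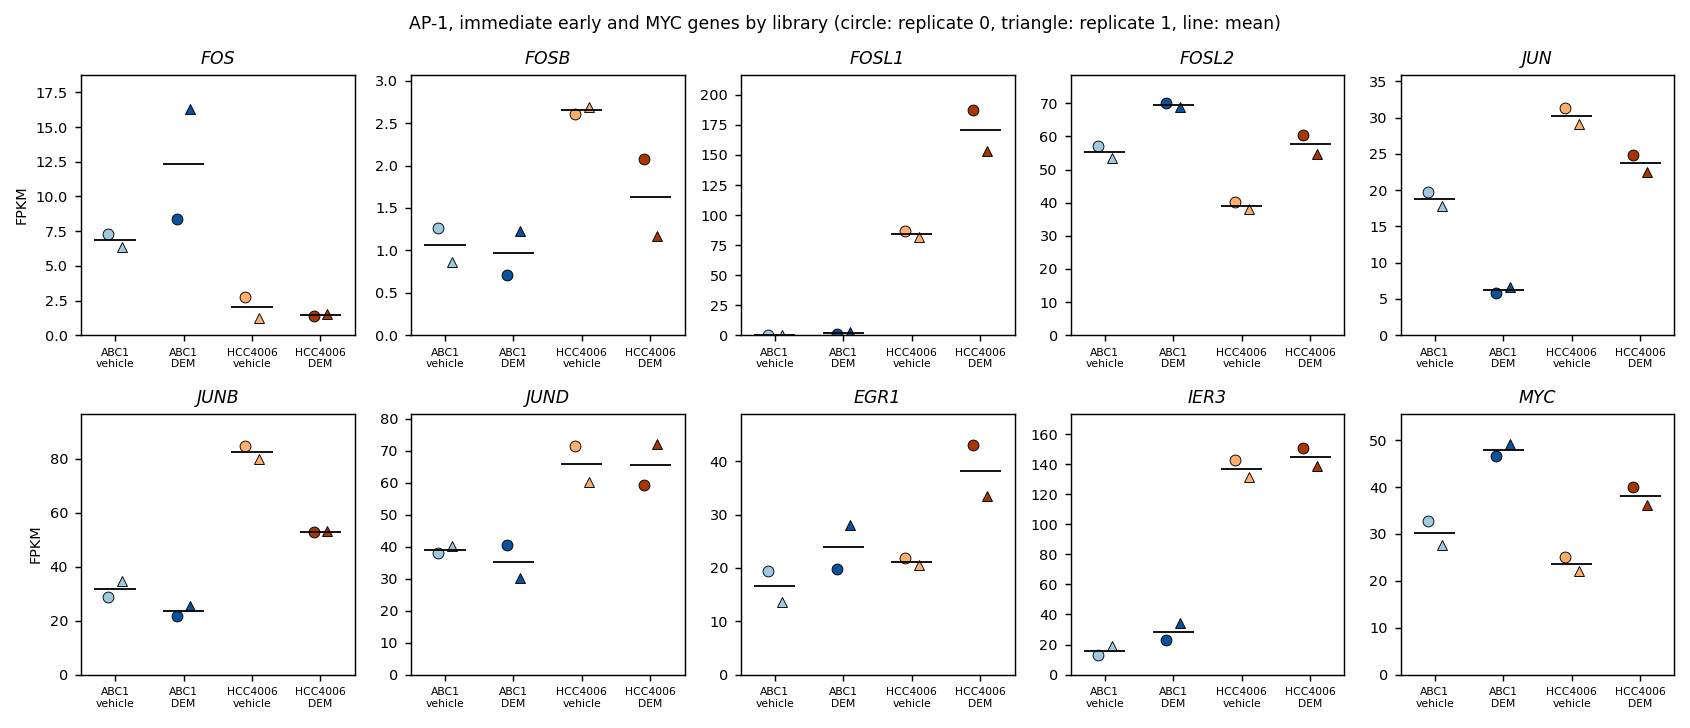
FPKM (vertical axes, linear, each from 0) of the 10 genes in the 8 libraries, with a circle for replicate 0, a triangle for replicate 1 and a line for the mean of the 2 libraries. *FOSL1* lies between 0.188 and 2.48 FPKM in ABC1 and between 81.8 and 188 FPKM in HCC4006, while *JUN* in ABC1 falls from 17.8 and 19.7 FPKM with vehicle to 5.83 and 6.61 FPKM with DEM.

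The first comparison asks how far the lines differ without DEM. With vehicle, HCC4006 carried far more *FOSL1* and *IER3* and more *JUNB*, *JUND*, *JUN* and *FOSB* than ABC1, whereas ABC1 carried more *FOS*, *FOSL2* and *MYC*. In limma's model of log2(FPKM + 1) over all 8 libraries, with Benjamini-Hochberg adjustment over the 13682 genes whose mean reached 1 FPKM and calls at an adjusted p under 0.05, 6 of the 10 genes were called higher and 3 lower in HCC4006. The lines differ at most genes, and 66.9% of all genes tested were called in this comparison, 36.8% as higher and 30.2% as lower in HCC4006. The vehicle libraries of the lines did not overlap for any of the 10 genes, 7 of them higher and 3 lower in HCC4006, which held for 84.8% of all genes tested, 45.4% higher and 39.4% lower.

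*FOSL1* encodes FRA1, a FOS protein without the transactivation domain of FOS that is known from invasive epithelial tumors. Its transcript was at 0.236 and 0.188 FPKM in the vehicle libraries of ABC1 and at 87.1 and 81.8 FPKM in those of HCC4006. The line difference was thus between near absence and one of the higher levels in the set, and the log2 difference of (FPKM + 1) was 6.14 (standard error, SE, 0.20, adjusted p = 2.1e-07, limma). *FOSL1* passed the minimum in this comparison through its HCC4006 libraries, and the difference was 8.08 on log2(FPKM + 0.1). *FOSL2*, which encodes the related FRA2, was at 57.1 and 53.5 FPKM in ABC1 and at 40.1 and 38.2 FPKM in HCC4006, lower in HCC4006 by a log2 difference of -0.49 (SE 0.09, adjusted p = 0.00211, limma). *FOS*, the founding member and the classical serum-induced gene, had 7.31 and 6.38 FPKM in ABC1 and 2.78 and 1.22 FPKM in HCC4006, a log2 difference of -1.44 (SE 0.33, adjusted p = 0.00555, limma). *FOSB* was the lowest FOS gene besides *FOSL1* in ABC1, with 1.26 and 0.864 FPKM there and 2.61 and 2.69 FPKM in HCC4006. Its log2 difference was 0.83 (SE 0.22, adjusted p = 0.0108, limma), and the call was lost without replicate 1 of ABC1 vehicle (adjusted p = 0.0644) or replicate 1 of HCC4006 vehicle (adjusted p = 0.0504) and without the minimum of 1 FPKM (adjusted p = 0.0566), in a range over the alternatives of 0.00576 to 0.0644.

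FPKM is scaled by transcript length, so levels can be added over a family, and on this scale the FOS families of the lines had different leading members. In the vehicle libraries of ABC1, *FOSL2* made up 86.6% to 87.8% of the summed FPKM of the 4 FOS genes and *FOSL1* 0.309% to 0.358%. In those of HCC4006, *FOSL1* made up 65.7% to 66.0% and *FOSL2* 30.2% to 30.8%. The summed FOS level was 60.9 to 65.9 FPKM in ABC1 and 124 to 133 FPKM in HCC4006. These are shares of transcript, and protein was not measured in these libraries.

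The JUN family was higher in HCC4006 with vehicle in each of its members. *JUNB*, an inducible JUN gene with weaker activation than *JUN*, was at 28.7 and 34.8 FPKM in ABC1 and at 84.7 and 80.0 FPKM in HCC4006. Its log2 difference was 1.35 (SE 0.12, adjusted p = 4.2e-05, limma). *JUN*, which can activate its own promoter, was at 19.7 and 17.8 FPKM in ABC1 and at 31.4 and 29.0 FPKM in HCC4006, a log2 difference of 0.66 (SE 0.11, adjusted p = 0.00119, limma). *JUND*, the member that most cells express at a steady level, was at 38.1 and 40.0 FPKM in ABC1 and at 71.4 and 60.2 FPKM in HCC4006, with a log2 difference of 0.73 (SE 0.16, adjusted p = 0.00514, limma). The shares within the family were closer than those of the FOS genes, since *JUN* held 19.2% to 22.7% of the summed JUN level in ABC1 and 16.7% to 17.2% in HCC4006. The summed level was 86.5 to 92.6 FPKM in ABC1 and 169 to 187 FPKM in HCC4006.

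*IER3*, an early response gene of stress and NF-κB signaling that modulates apoptosis, was at 12.8 and 18.9 FPKM in the vehicle libraries of ABC1 and at 143 and 131 FPKM in those of HCC4006. The mean was 8.65 times higher in HCC4006 and the log2 difference was 3.06 (SE 0.22, adjusted p = 1.1e-05, limma). *EGR1*, a zinc finger factor induced by ERK signaling, was at 19.4 and 13.7 FPKM in ABC1 and at 21.8 and 20.5 FPKM in HCC4006. It was the only one of the 10 genes not called between the lines, with a log2 difference of 0.35 (95% confidence interval, CI, -0.15 to 0.86, adjusted p = 0.182, limma), which was 0.12 without replicate 1 of ABC1 vehicle and 0.59 without replicate 0 of ABC1 vehicle. *MYC* was at 32.7 and 27.7 FPKM in ABC1 and at 25.2 and 22.2 FPKM in HCC4006, a log2 difference of -0.34 (SE 0.12, adjusted p = 0.0364, limma). The *MYC* call was lost in a fit of the vehicle libraries alone (adjusted p = 0.0610) and without replicate 0 of ABC1 vehicle (0.188), replicate 1 of HCC4006 vehicle (0.197), replicate 0 of HCC4006 DEM (0.0512) or replicate 1 of HCC4006 DEM (0.0511) and without the minimum (0.0795), in a range over the alternatives of 0.00499 to 0.197.

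The order of the 10 levels also differed between the lines. In ABC1 with vehicle the order by mean FPKM was *FOSL2*, *JUND*, *JUNB*, *MYC*, *JUN*, *EGR1*, *IER3*, *FOS*, *FOSB* and *FOSL1*, and the libraries of neighbours in this order overlapped for *JUNB* and *MYC*, for *JUN* and *EGR1*, and for *EGR1* and *IER3*. In HCC4006 with vehicle it was *IER3*, *FOSL1*, *JUNB*, *JUND*, *FOSL2*, *JUN*, *MYC*, *EGR1*, *FOSB* and *FOS*, with overlap between *FOSL1* and *JUNB* and between *FOSB* and *FOS*. With DEM, *MYC* stood second in ABC1 and *JUN* eighth, while *FOSL1* stood first in HCC4006.

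**Figure D2:**
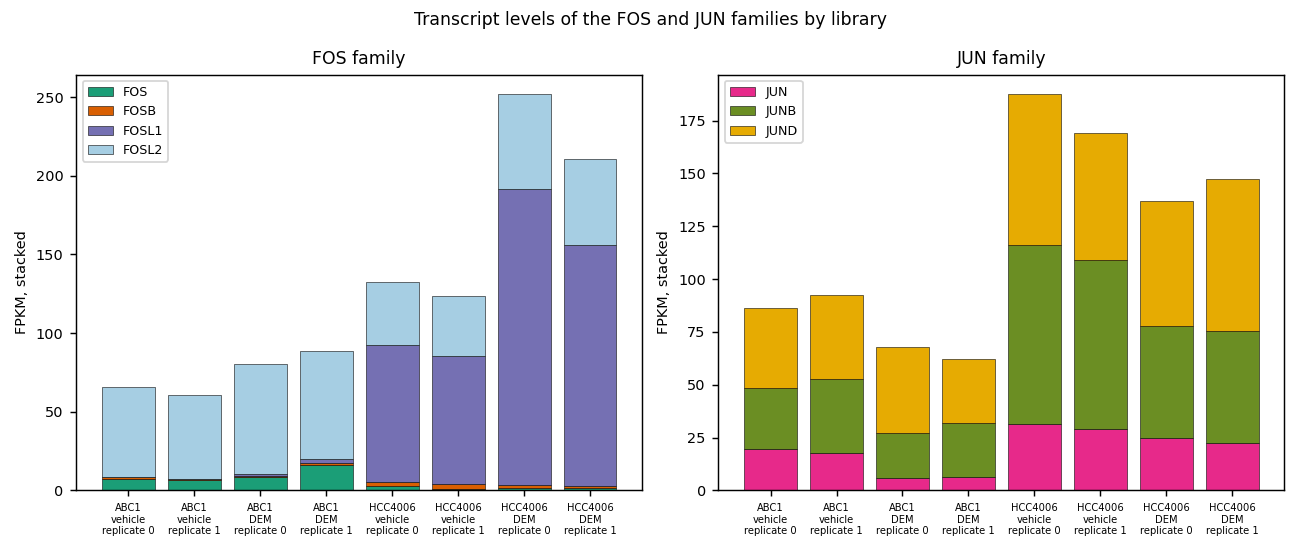
FPKM of the FOS genes (left) and of the JUN genes (right), stacked for each of the 8 libraries on linear axes that start at 0. *FOSL2* fills 77.5% to 87.8% of the FOS bars in ABC1 and *FOSL1* fills 65.7% to 74.6% of those in HCC4006, and the *JUN* part of the ABC1 bars is smaller with DEM.

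In ABC1, the response to DEM was led by a fall of *JUN*. Its libraries held 19.7 and 17.8 FPKM with vehicle and 5.83 and 6.61 FPKM with DEM, so the lower vehicle library was still far above the higher DEM library. Mean *JUN* went from 18.7 ± 1.33 FPKM to 6.22 ± 0.553 FPKM (SD, n = 2 in each group) and was 3.01-fold lower with DEM. The log2 fold change was -1.45 (SE 0.14, 95% CI -1.80 to -1.11, adjusted p = 0.0226, limma with Benjamini-Hochberg adjustment over 12635 genes), and it was the 39th largest fall among them. In bulk RNA, a lower level per cell and a lower share of cells that carry the transcript cannot be told apart. *JUN* was 1 of 10 genes called lower and 0 of 10 were called higher, against 0.435% of all genes tested called lower, 0.768% called higher and 1.2% called in either direction. An unadjusted p under 0.05 was found for 6 of the 10 and for 21.9% of all genes tested. The 6 include *FOSL1*, which passed the minimum of 1 FPKM through its DEM libraries alone. The *JUN* call was lost without replicate 0 of ABC1 vehicle (adjusted p = 0.250) or replicate 1 of ABC1 vehicle (0.155) and without the minimum of 1 FPKM (0.119), in a range over the alternatives of 0.00116 to 0.250, while its log2 fold change lay between -1.58 and -1.37 throughout.

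The other JUN genes moved less in ABC1. *JUNB* was at 28.7 and 34.8 FPKM with vehicle and at 21.5 and 25.5 FPKM with DEM. The DEM pair lay below the vehicle pair, and the log2 fold change of -0.42 (SE 0.16, 95% CI -0.80 to -0.03) was not called (adjusted p = 0.201, limma). *JUND* was at 38.1 and 40.0 FPKM with vehicle and at 40.4 and 30.2 FPKM with DEM, with overlapping groups and a log2 fold change of -0.16 (95% CI -0.57 to 0.26, adjusted p = 0.622, limma). The share of *JUN* in the summed JUN level went from 19.2% to 22.7% with vehicle to 8.60% to 10.6% with DEM, and the sum went from 86.5 to 92.6 FPKM to 62.3 to 67.7 FPKM. The ranges of share and sum did not overlap between the groups.

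Among the FOS genes of ABC1, *FOSL1* had the largest ratio, from the lowest vehicle level. It was at 0.236 and 0.188 FPKM with vehicle and at 1.28 and 2.48 FPKM with DEM. The DEM mean was 8.86 times the vehicle mean, at a mean scaled count over the 4 libraries of 18.4 in the authors' table, and the gene passed the minimum of 1 FPKM through its DEM libraries alone. Its log2 fold change was 1.22 (SE 0.29, adjusted p = 0.101, limma), which was not called, and the size depended on the pseudocount, with 2.60 on log2(FPKM + 0.1). A model fitted to all 8 libraries called it (adjusted p = 0.0132, in a range over the alternatives of 0.0132 to 0.344). *FOSL2* was at 57.1 and 53.5 FPKM with vehicle and at 70.0 and 68.8 FPKM with DEM, higher in both DEM libraries, with a log2 fold change of 0.32 (95% CI 0.03 to 0.61, adjusted p = 0.193, limma). *FOS* was at 7.31 and 6.38 FPKM with vehicle and at 8.37 and 16.3 FPKM with DEM. Its DEM replicates were further apart than replicate 0 of DEM was from vehicle, and the log2 fold change of 0.70 was not called (95% CI -0.03 to 1.43, adjusted p = 0.241, limma). *FOSB* overlapped between the groups, with 1.26 and 0.864 FPKM with vehicle and 0.706 and 1.23 FPKM with DEM, and had a log2 fold change of -0.07 (95% CI -0.72 to 0.57, adjusted p = 0.895, limma).

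*MYC*, *IER3* and *EGR1* were each higher in both DEM libraries of ABC1 than in both vehicle libraries, and none was called. *MYC* was at 32.7 and 27.7 FPKM with vehicle and at 46.6 and 49.2 FPKM with DEM, a log2 fold change of 0.65 (SE 0.14, 95% CI 0.32 to 0.99, adjusted p = 0.0802, limma). The fit of all 8 libraries called *MYC* (adjusted p = 0.0174, in a range over the alternatives of 0.0105 to 0.355). *IER3* was at 12.8 and 18.9 FPKM with vehicle and at 23.1 and 34.1 FPKM with DEM, a log2 fold change of 0.81 (SE 0.25, adjusted p = 0.151, limma). For *EGR1* the gap between the groups was narrow, from 19.4 and 13.7 FPKM with vehicle to 19.7 and 28.0 FPKM with DEM, and the log2 fold change was 0.50 (95% CI -0.07 to 1.08, adjusted p = 0.276, limma). In all, the groups did not overlap for 8 of the 10 genes in ABC1, 6 with DEM higher and 2 with DEM lower, which held for 53.7% of all genes tested, 25.5% higher and 28.2% lower. The median log2 fold change of the 10 genes, which includes *FOSL1*, was 0.41, beside -0.02 over all genes tested.

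**Figure D3:**
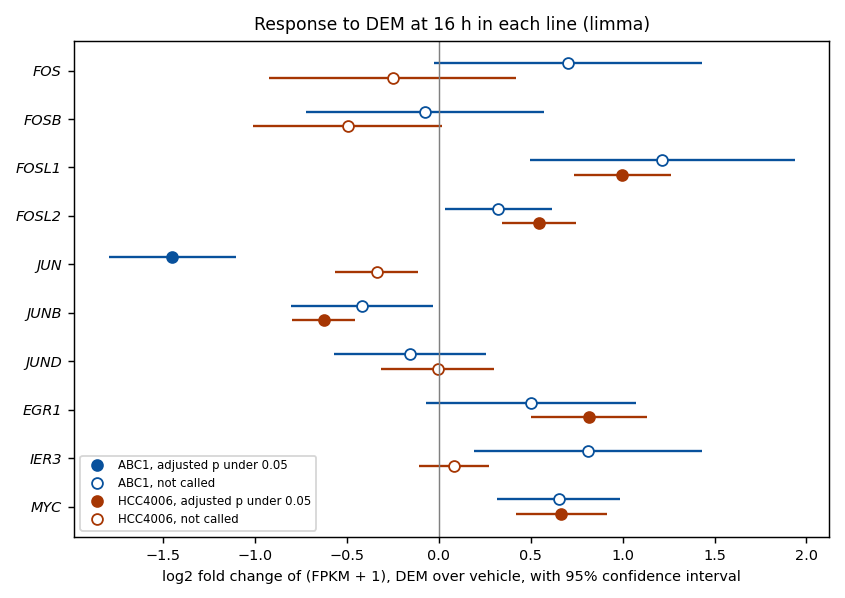
Log2 fold change of (FPKM + 1) with DEM over vehicle (horizontal axis) of the 10 genes in ABC1 (blue) and HCC4006 (brown), from limma with 95% CIs, filled where the adjusted p was under 0.05. *JUN* is filled in ABC1 at -1.45, and *FOSL1*, *FOSL2*, *EGR1*, *MYC* and *JUNB* are filled in HCC4006.

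In HCC4006, DEM raised *FOSL1*, *EGR1*, *MYC* and *FOSL2* and lowered *JUNB*. Thus 4 of the 10 genes were called higher and 1 lower by limma with Benjamini-Hochberg adjustment over 13542 genes, against 8.45% of all genes tested called higher, 10.7% called lower and 19.1% called in either direction. The groups did not overlap for 7 of the 10, 4 with DEM higher and 3 with DEM lower, which held for 64.6% of all genes tested, 29.3% higher and 35.3% lower. The median log2 fold change of the 10 genes was 0.04, beside -0.03 over all genes tested. Without the minimum of 1 FPKM, 0 of the 5 calls were left (adjusted p of 0.0512 for *JUNB*, 0.0989 for *FOSL2*, 0.102 for *FOSL1*, 0.117 for *MYC* and 0.152 for *EGR1*, the highest value over the alternatives for each).

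*FOSL1*, already the leading FOS gene of HCC4006, was at 87.1 and 81.8 FPKM with vehicle and at 188 and 153 FPKM with DEM. Both DEM libraries were well above both vehicle libraries, and the mean was 2.02 times higher. The log2 fold change was 0.999 (SE 0.11, 95% CI 0.73 to 1.26, adjusted p = 0.00456, limma). *FOSL2* was at 40.1 and 38.2 FPKM with vehicle and at 60.5 and 54.8 FPKM with DEM, again without overlap, and the log2 fold change was 0.55 (SE 0.08, 95% CI 0.34 to 0.75, adjusted p = 0.0115, limma). The call of *FOSL2* was lost without replicate 0 of HCC4006 DEM (adjusted p = 0.0549) or replicate 1 of HCC4006 vehicle (0.0699), in a range over the alternatives of 0.00764 to 0.0989. The 2 low FOS genes showed no call. *FOS* was at 2.78 and 1.22 FPKM with vehicle and at 1.36 and 1.5 FPKM with DEM (log2 fold change -0.25, 95% CI -0.93 to 0.42, adjusted p = 0.545, limma), with DEM inside the vehicle range. *FOSB* was at 2.61 and 2.69 FPKM with vehicle and at 2.08 and 1.17 FPKM with DEM, lower in both DEM libraries but not called (log2 fold change -0.50, SE 0.21, adjusted p = 0.146, limma). The summed FOS level was 124 to 133 FPKM with vehicle and 211 to 252 FPKM with DEM, and the share of *FOSL1* was 72.7% to 74.6% with DEM.

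*JUNB* was at 84.7 and 80.0 FPKM with vehicle and at 52.9 and 53.0 FPKM with DEM in HCC4006. The DEM libraries agreed closely and lay far below vehicle, with a mean 1.55-fold lower and a log2 fold change of -0.63 (SE 0.07, 95% CI -0.80 to -0.45, adjusted p = 0.00518, limma). *JUN* was at 31.4 and 29.0 FPKM with vehicle and at 24.9 and 22.5 FPKM with DEM, lower in both DEM libraries but just outside the threshold (log2 fold change -0.34, SE 0.09, adjusted p = 0.0535, limma). *JUND* was at 71.4 and 60.2 FPKM with vehicle and at 59.1 and 72.0 FPKM with DEM, with fully overlapping groups and a log2 fold change of -0.01 (95% CI -0.31 to 0.30, adjusted p = 0.974, limma). The summed JUN level was 169 to 187 FPKM with vehicle and 137 to 148 FPKM with DEM, and the share of *JUNB* was 45.2% to 47.3% with vehicle and 36.0% to 38.6% with DEM.

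*EGR1* was at 21.8 and 20.5 FPKM with vehicle and at 43.0 and 33.5 FPKM with DEM in HCC4006, higher in both DEM libraries, with a log2 fold change of 0.82 (SE 0.13, 95% CI 0.50 to 1.13, adjusted p = 0.0125, limma). The call of *EGR1* was lost without replicate 1 of HCC4006 vehicle (adjusted p = 0.0615) and in the fit of all 8 libraries (0.0527), in a range over the alternatives of 0.00703 to 0.152. *MYC* was at 25.2 and 22.2 FPKM with vehicle and at 40.1 and 36.2 FPKM with DEM, without overlap. Its log2 fold change was 0.67 (SE 0.10, 95% CI 0.42 to 0.91, adjusted p = 0.0111, limma), and the call was lost without replicate 0 of HCC4006 DEM (adjusted p = 0.0590) or replicate 1 of HCC4006 vehicle (0.0613), in a range over the alternatives of 0.00622 to 0.117. *IER3*, at 143 and 131 FPKM with vehicle and 151 and 139 FPKM with DEM, had overlapping groups and a log2 fold change of 0.08 (95% CI -0.11 to 0.27, adjusted p = 0.484, limma).

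The last comparison asks whether the lines responded differently, as the response of HCC4006 minus that of ABC1 in one model of all 8 libraries. *JUN* was the 1 gene of the 10 called, against 0.636% of all genes tested called in either direction and 0.307% called higher. Its response differed by 1.11 on the log2 scale (SE 0.16, 95% CI 0.74 to 1.48, adjusted p = 0.0371, limma with Benjamini-Hochberg adjustment over 13682 genes), the fall being larger in ABC1. The call was lost without any one of the 8 libraries (adjusted p of 0.0591 to 0.189), with a pseudocount of 0.1 (0.0566) and in other settings given with the alternatives, in a range over the alternatives of 0.0330 to 0.189, while the difference itself stayed between 1.03 and 1.23.

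The responses of the other 9 genes were not shown to differ. The difference for *MYC* was 0.01, with a 95% CI of -0.38 to 0.41 (adjusted p = 0.984, limma). The difference for *FOSL2* was 0.22 (95% CI -0.08 to 0.52, adjusted p = 0.491, limma) and that for *JUNB* was -0.21 (-0.62 to 0.20, adjusted p = 0.652, limma). Wider intervals were found for *IER3*, with a difference of -0.73 (-1.44 to -0.02, adjusted p = 0.318, limma), and for *FOS*, with -0.95 (-2.03 to 0.13, adjusted p = 0.394, limma). With a library left out the difference for *FOS* was -1.40 to -0.51, and it was nearest to 0 without replicate 1 of ABC1 DEM (-0.51) or replicate 0 of HCC4006 vehicle (-0.57). For *EGR1*, called in HCC4006 and not in ABC1, the difference was 0.31 (-0.40 to 1.03, adjusted p = 0.710, limma), and it ranged from 0.072 without replicate 0 of ABC1 DEM to 0.56 without replicate 1 of ABC1 DEM. For *FOSL1*, also called in HCC4006 alone, it was -0.22 on log2(FPKM + 1) (-0.88 to 0.44, adjusted p = 0.794, limma) and -1.59 on log2(FPKM + 0.1) (adjusted p = 0.166, limma), in a range over the alternatives of 0.166 to 0.966, so that its size depended on the pseudocount. *JUND* and *FOSB* differed by 0.15 and -0.42, with adjusted p-values of 0.832 and 0.597 by limma.

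The remaining genes of the pathway were taken from lists of partners, regulators and known targets. Of 11 other bZIP proteins that pair with or compete with AP-1, 9 were tested in ABC1 and 10 in HCC4006. In ABC1, 1 was called higher and 1 lower, beside 0.768% and 0.435% of all genes tested, with a median log2 fold change of 0.35. In HCC4006, 3 were called higher and 1 lower, beside 8.45% and 10.7%, with a median of 0.39. The medians over all genes tested were -0.02 in ABC1 and -0.03 in HCC4006. *CREM*, whose products include the early cyclic AMP repressor ICER, rose in both lines, from 14.0 and 18.2 to 33.8 and 36.4 FPKM in ABC1 (log2 fold change 1.09, adjusted p = 0.0482, limma) and from 34.0 and 32.5 to 57.7 and 55.3 FPKM in HCC4006 (0.75, adjusted p = 0.00383, limma). *BATF*, a JUN partner without a transactivation domain, fell in ABC1 from 60.1 and 68.4 to 31.5 and 31.8 FPKM (log2 fold change -0.995, adjusted p = 0.0422, limma). *ATF3*, a stress-induced JUN partner, was higher with DEM in ABC1 but not called, from 4.34 and 3.83 to 8.25 and 10.4 FPKM (1.02, adjusted p = 0.0614, limma). In HCC4006, *ATF3* rose from a mean of 13.9 to one of 36.2 FPKM (1.33, adjusted p = 0.00163, limma). Its line difference of 0.31 was not called (adjusted p = 0.514, limma). In HCC4006, *ATF2*, which pairs with JUN, rose by 0.42 (adjusted p = 0.0489, limma). *ATF1*, named after its values were seen, was the 1 called lower there (-0.29, adjusted p = 0.0499, limma). In ABC1 the calls of *CREM* (adjusted p of 0.0827 to 0.315) and *BATF* (0.0827 to 0.284) were lost without any one of the 4 libraries. In HCC4006 that of *ATF1* was lost likewise (0.111 to 0.221), and that of *ATF2* without replicate 0 of DEM (0.153) or replicate 0 (0.119) or 1 (0.189) of vehicle.

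Of 30 other immediate early genes, 25 were tested in each line. In ABC1, 0 were called by limma and 7 had an unadjusted p under 0.05, beside 21.9% of all genes tested, with a median log2 fold change of 0.06. In HCC4006, 5 were called higher and 4 lower, beside 8.45% and 10.7% of all genes tested, with a median of -0.13. Of the called genes, *BTG2*, *DUSP1* and *KLF4* had log2 fold changes in ABC1 of -0.85, 0.12 and 0.65 (adjusted p = 0.161, 0.611 and 0.130, limma). Their line differences were not called (adjusted p = 0.180, 0.0668 and 0.877, limma). In HCC4006 the antiproliferative gene *BTG2* fell from 8.72 and 7.54 to 0.833 and 1.46 FPKM (log2 fold change -2.10, adjusted p = 0.00279, limma). There *DUSP1*, a phosphatase of stress kinases, rose from 9.27 and 9.86 to 18.4 and 18.2 FPKM (0.87, adjusted p = 0.00451, limma) and *KLF4* rose from 13.8 and 11.9 to 23.3 and 21.5 FPKM (0.76, adjusted p = 0.00949, limma). These counts fell when any one library of HCC4006 was left out, to 1 higher and 2 lower without replicate 0 of DEM, 3 and 3 without replicate 1 of DEM, 2 and 2 without replicate 0 of vehicle, and 1 and 3 without replicate 1 of vehicle. They were 1 and 0 without the minimum and 2 and 2 in the fit of all 8 libraries. Among 18 kinases, cofactors and ubiquitin ligases upstream of AP-1, 17 were tested in each line. In ABC1, 0 were called by limma and 4 of the 17 had an unadjusted p under 0.05, beside the same 21.9%, with a median of 0.08. In HCC4006, only *MAP2K4*, a kinase that activates the JUN kinases, was called, higher by 0.60 (adjusted p = 0.00973, limma), with a list median of 0.05. Of all genes tested in HCC4006, 8.45% were called higher and 10.7% lower. In ABC1 the log2 fold change of *MAP2K4* was 0.43 (adjusted p = 0.141, limma). The call of *MAP2K4* was lost without replicate 1 of DEM (adjusted p = 0.0503) or replicate 0 (0.0517) or 1 (0.0597) of vehicle, and that of *KLF4* without replicate 0 of DEM (0.0566) or replicate 1 of vehicle (0.0535).

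Of 22 genes known as AP-1 targets, 13 were tested in ABC1 and 18 in HCC4006. In ABC1, 1 was called higher and 0 lower, beside 0.768% and 0.435% of all genes tested, with a median log2 fold change of 0.17. In HCC4006, 2 were called higher and 7 lower, beside 8.45% and 10.7%, with a median of -0.14. Over the alternatives the HCC4006 counts ranged from 0 to 3 higher and from 2 to 8 lower. *VEGFA*, the angiogenic growth factor, was the one called in ABC1, from 53.8 and 55.5 to 160 and 159 FPKM (1.53, adjusted p = 0.0153, limma). It was also called higher in HCC4006, by a smaller log2 fold change (0.35, adjusted p = 0.0489, limma). That HCC4006 call was lost without the trend (adjusted p = 0.104), without the minimum (0.241) and in the fit of all 8 libraries (0.0625, limma). The response of *VEGFA* differed between the lines (-1.18, adjusted p = 0.0232, limma). In HCC4006, the cyclooxygenase gene *PTGS2* fell from 24.8 and 28.0 to 6.03 and 5.91 FPKM (-1.97, adjusted p = 6.8e-04, limma) and the chemokine gene *CXCL8* fell from 7.99 and 12.2 to 2.66 and 1.62 FPKM (-1.82, adjusted p = 0.00815, limma). The call of *CXCL8* was lost without the minimum (adjusted p = 0.141, limma). For *PTGS2* the line difference in the response was called (-1.99, adjusted p = 0.0388, limma). The call of *VEGFA* in ABC1 was lost without replicate 0 (adjusted p = 0.181) or 1 (0.137) of vehicle, and its line difference without any one of the 8 libraries (0.0503 to 0.154). The line difference of *PTGS2* was lost without any one library but replicate 1 of ABC1 vehicle (0.0503 to 0.205).

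The list of MYC partners and competitors held 12 genes. In ABC1, 12 were tested, with 0 called higher and 1 lower, beside 0.768% and 0.435% of all genes tested. Their median log2 fold change was -0.15. In HCC4006, 10 were tested, with 1 called higher and 1 lower, beside 8.45% and 10.7% of all genes tested, and a median of 0.06. The one called in ABC1 was *MYCN*, a *MYC* paralog, which fell from 60.6 and 60.3 FPKM to 24.7 and 28.3 FPKM (-1.16, adjusted p = 0.0326, limma) and was at 0 to 0.0510 FPKM in the libraries of HCC4006. The vehicle level of *MYCN* in ABC1 was thus above that of *MYC*. In HCC4006, *MXD1*, a MAX partner that opposes MYC, rose by 0.95 (adjusted p = 0.00654, limma), and *MXD3* of the same family fell by 1.11 (adjusted p = 0.00634, limma). Without the minimum both calls were lost (adjusted p = 0.0863 and 0.104, limma). In ABC1 the log2 fold changes of *MXD1* and *MXD3* were 0.28 and -0.47, and neither line difference was called (adjusted p = 0.154 and 0.329, limma). Of 24 genes known as MYC targets, mostly of ribosome production, 23 were tested in each line. In ABC1, 0 were called by limma, 7 of the 23 had an unadjusted p under 0.05, beside 21.9% of all genes, and the median was -0.29. In HCC4006, 0 were called higher and 11 lower, beside 8.45% and 10.7% of all genes tested, with a median of -0.32. The count called lower there ranged from 0 to 14 over the alternatives. The largest called falls were those of *POLR3G* (-0.67, adjusted p = 0.0453), *RRS1* (-0.62, adjusted p = 0.00905) and *NOLC1* (-0.62, adjusted p = 0.0116, limma). In each line 2 of the 23 had a log2 fold change above 0, while the medians over all genes tested were -0.02 in ABC1 and -0.03 in HCC4006. *MYC* itself had 0.65 in ABC1 and 0.67 in HCC4006, and a link of its transcript to these genes was not tested. The calls of *POLR3G* (adjusted p of 0.0597 to 0.159 without any one library of HCC4006), *RRS1* (0.0544 without replicate 0 of vehicle) and *NOLC1* (0.0526 and 0.0562 without replicate 0 or 1 of vehicle) and of *MYCN* in ABC1 (0.0530 to 0.284 without any one library of ABC1) did not hold throughout.

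**Figure D4:**
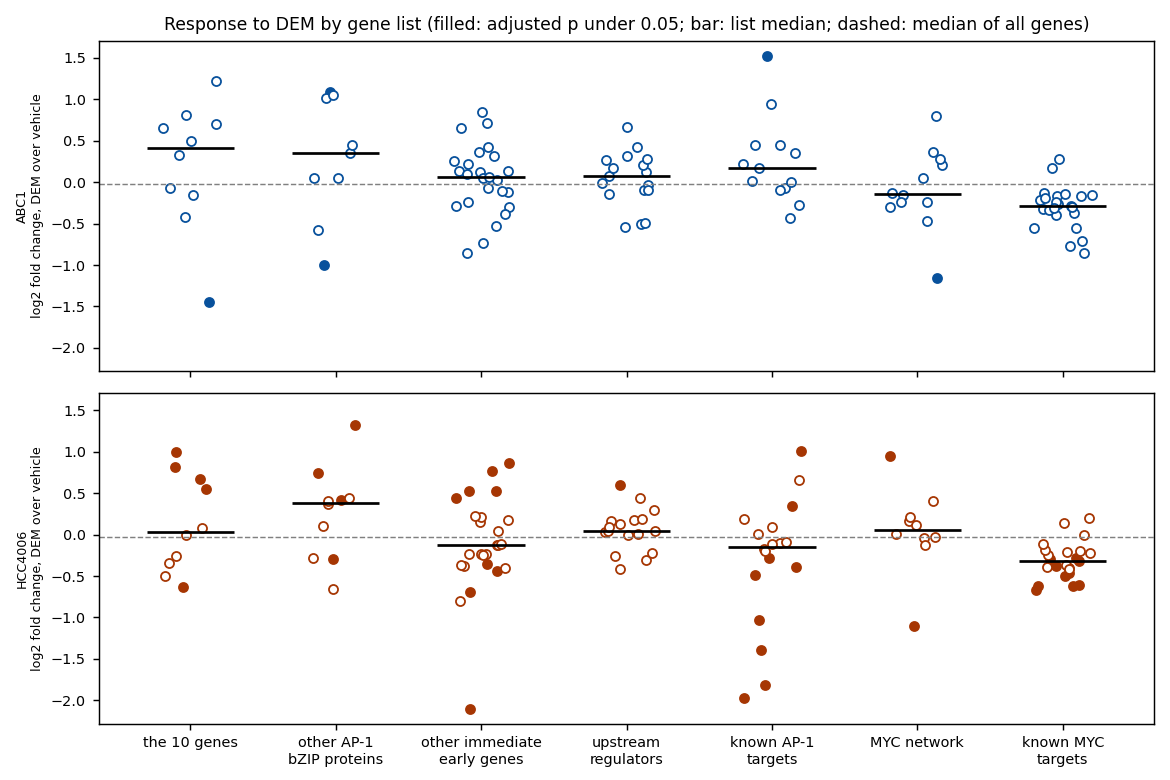
Log2 fold change with DEM over vehicle (vertical axes) of each gene tested in the 10-gene set and 6 lists, in ABC1 (top) and HCC4006 (bottom), with filled points for an adjusted p under 0.05, bars for list medians and a dashed line for the median of all genes. The known MYC targets lie mostly below 0 in both lines, with medians of -0.29 and -0.32, and sideways position within a list has no meaning.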

How the data were processed

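RNA-seq of 8 poly(A)-selected, strand-specific libraries was analysed from FPKM tables. The authors deposited FPKM values per gene and library. Their methods name TopHat and Cufflinks on hg19, whereas the submitters' processing notes list cutadapt 1.15, STAR 2.5.3a, Cuffnorm, HTSeq and DESeq2 with hg19 and GRCh37.p13, so which tools made the FPKM tables is not settled. The authors also deposited a comparison table per line, of which only the base mean, a signal of counts scaled to a common depth, was used as a measure of depth. Base means summed to 13786938 in ABC1 and 13957320 in HCC4006. The other columns hold the authors' own fold changes, standard errors, statistics and p-values and were not used. Counts per library were not analysed here, so no counting interval is given.

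Symbols were found for 55534 of the 57815 identifiers. DEM and vehicle were compared within each line by limma 3.58.1 (R 4.3.3) with a mean-variance trend on log2(FPKM + 1), over genes whose mean in the fitted libraries reached 1 FPKM. Line differences were fitted on all 8 libraries. Tests were two-sided with Benjamini-Hochberg adjustment over all genes tested and calls at 0.05. An exact permutation test of 2 against 2 libraries cannot go below p = 0.333. The pseudocount lowers the fold changes of weakly expressed genes. The fit was tested on simulated data. The alternatives were a pseudocount of 0.1, no minimum, median-of-ratios or upper-quartile scaling, no trend, a replicate block, other sets of libraries in the fit, and each library left out. The 10 genes and the lists were chosen with earlier results of these data known. From each list, at most 3 called genes per line with the largest change and no overlap of libraries are named, except 1 that is not reported here. Older symbols were matched through RefSeq synonyms. The endothelial marker *PECAM1* was not matched, and protein sequences were not used.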

Additional observations from a re-analysis of the deposited data

Results flagged for a closer look

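The response of *JUN* to DEM differed between the lines by the test of the difference itself. *JUN* fell by 1.45 on the log2 scale in ABC1 and its log2 fold change was -0.34 in HCC4006, and the response of HCC4006 minus that of ABC1 was 1.11 (SE 0.16, adjusted p = 0.0371, limma, Benjamini-Hochberg). With vehicle, *JUN* was already lower in ABC1 (18.7 FPKM) than in HCC4006 (30.2 FPKM). The part of the lower starting level in the difference was not tested. The call was lost without any one of the 8 libraries, with adjusted p-values of 0.0591 to 0.189 by limma. Groups of 2 libraries are too small for a test of single libraries that stand apart.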

How the results depend on the processing

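Over the members' fold changes and the alternatives tried for each, 441 kept their direction and side of the threshold, 33 lost the call, 8 gained one and 14 changed sign. The counts of members called moved as follows. In ABC1, called higher went from 0 to 2 in the fit of all 8 libraries and to 4 with the replicate block, and called lower went from 1 to 0 without the minimum, to 2 with the block and to 0 to 1 with a library left out. In HCC4006, called higher went from 4 to 0 without the minimum and to 1 to 4 with a library left out, and called lower went from 1 to 0 without the minimum and to 2 with the block. The line difference of *JUN* was not called, leaving 0 of 10, with a pseudocount of 0.1 (adjusted p = 0.0566, limma), with the replicate block (0.0723) or without any one library. Fewer libraries leave fewer degrees of freedom, a library left alone in its group is assumed to vary like those of the other groups, and no minimum adds genes to the adjustment. The causes of the other moves were not tested.

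The same replicate numbers need not mark paired cultures. With 2 pairs per line, deviations of same-numbered libraries correlated at 0.258 in ABC1 and 0.0544 in HCC4006 across genes. The block called *FOSL1*, *FOSL2*, *IER3* and *MYC* higher and *JUNB* lower in ABC1 and *JUN* lower in HCC4006 (adjusted p = 0.0296, limma), beside the calls already given. Over all genes the block moved the calls in ABC1 from 97 higher and 55 lower to 1185 and 1163, and those of the line difference from 42 and 45 to 5 and 8.

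Changes of sign concerned values that were not called, from -0.25 for *FOS* in HCC4006 to 0.15 for the line difference of *JUND*. With a library left out, the log2 fold changes were -0.21 to 0.12 for *FOSB* and -0.36 to 0.046 for *JUND* in ABC1 and -0.64 to 0.13 for *FOS* and -0.15 to 0.13 for *JUND* in HCC4006, where *JUND* was also at 0.024 with median-of-ratios and 0.017 with upper-quartile scaling. The libraries whose absence turned the sign were replicate 0 of ABC1 DEM for *FOSB*, replicate 1 of ABC1 DEM for *JUND* in ABC1, replicate 0 of HCC4006 vehicle for *FOS*, and replicate 0 of HCC4006 vehicle (0.11) or DEM for *JUND* in HCC4006. The line difference was -0.52 to 0.089 for *FOSL1* and -0.053 to 0.35 for *JUND*, both turned without replicate 1 of ABC1 DEM. That of *MYC* was -0.10 to 0.13 with a library left out and -0.021 with upper-quartile scaling, and it turned without replicate 0 of ABC1 vehicle, ABC1 DEM or HCC4006 DEM or replicate 1 of HCC4006 vehicle. In ABC1, *FOSL1* was under the minimum without either DEM library and *FOSB* without replicate 0 of vehicle or replicate 1 of DEM, and they gave no value there.

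Over all genes, calls in ABC1 were 27 higher and 6 lower without the trend, 738 and 756 in the fit of all 8 libraries, 158 and 93 with median-of-ratios scaling, 10 to 51 and 8 to 18 with a library left out, and 0 and 0 without the minimum, where 3883 had an unadjusted p under 0.05. In HCC4006, calls were 177 higher and 193 lower without the minimum and 290 to 464 and 344 to 564 with a library left out, against 1144 and 1447. In the line difference they were 11 and 9 with a pseudocount of 0.1, 173 and 230 without the minimum and 0 to 17 and 2 to 27 with a library left out. Between the vehicle groups, upper-quartile scaling moved the median of all genes from 0.07 to -0.12 and the calls from 5032 higher and 4127 lower to 4204 and 5233, with no change of sign among the members. Of the 308 recomputed counts of called genes in the lists, 218 stayed within 1.5 times and 90 did not, as for the known MYC targets called lower (0 to 9 in ABC1 and 0 to 14 in HCC4006) and the known AP-1 targets called lower in HCC4006 (2 to 8).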

Other observations

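The DEM libraries of ABC1 were further apart than the vehicle libraries for *FOS*, *FOSL1* and *FOSB*. Replicate 1 of ABC1 DEM stood above replicate 0 by a ratio of 1.95 for *FOS*, 1.94 for *FOSL1*, 1.74 for *FOSB*, 1.47 for *IER3* and 1.42 for *EGR1*, while it was 0.984 for *FOSL2*, 1.1 for *MYC*, 1.13 for *JUN*, 1.18 for *JUNB* and 0.748 for *JUND*. The median ratio over all 12635 genes tested in ABC1 was 1.05, and 12.1% of them exceeded 1.4. Between the vehicle libraries of ABC1 the ratio of replicate 1 to replicate 0 was 0.874 for *FOS*, 0.799 for *FOSL1*, 0.686 for *FOSB*, 1.47 for *IER3* and 0.706 for *EGR1*, so that *IER3* and *EGR1* were about as far apart there. Without replicate 1 of ABC1 DEM the log2 fold change was 0.26 for *FOS* and 0.26 for *EGR1*, against 0.70 and 0.50 with it, and without replicate 0 of ABC1 DEM it was 1.145 and 0.75. For *EGR1* it was also 0.27 without replicate 1 and 0.74 without replicate 0 of ABC1 vehicle.

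*BATF* fell in ABC1 and was at 47.8 and 43.5 FPKM with vehicle and at 70.4 and 49.5 FPKM with DEM in HCC4006. The difference between the lines in its response was 1.36 on the log2 scale and was not called (adjusted p = 0.0638, limma). *VIM* and *CD68*, at 227 FPKM or more and at 89.3 FPKM or more in every HCC4006 library, were at most 0.909 and 2.54 FPKM in ABC1.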
